A study of Homo sapiens with 8 samples.

Results

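Feedback inhibitors and transcriptional outputs of the RAS-ERK pathway, together called feedback genes here, were followed in RNA-seq of SW1990 cells, an established human pancreatic adenocarcinoma cell line. The group was listed by name, with earlier results of these data known, and holds 10 of the 38637 genes in the deposited table: DUSP4, DUSP5, DUSP6, SPRY2, SPRY4, SPRED1, SPRED2, ETV4, ETV5 and PHLDA1. All 10 were found and all 10 passed the low-count filter in every comparison. The study had 4 groups with 2 libraries each: cells with the empty vector (Vector), cells made to overexpress EBF2, a helix-loop-helix transcription factor (EBF2-OE), cells given vehicle (Vehicle) and cells given GSK-LSD1, an inhibitor of the histone demethylase KDM1A (also called LSD1), which removes methyl groups from H3K4. The titles of the GSK-LSD1 libraries give 2000 µM. The paper's text gives no dose for RNA-seq, and only lower doses for its Western blot of GSK-LSD1 in these cells. Neither source gives a treatment time, the promoter that drives EBF2 or whether the cells were a clone. The 2 libraries of a group carry the numbers 2 and 3 (Vector, EBF2-OE) or 1 and 2 (Vehicle, GSK-LSD1). What the numbers stand for is not given in the sources used here, so the p-values below measure the spread between these libraries, which may be technical.

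In the RAS-ERK pathway, receptor tyrosine kinases switch on RAS, and RAF, MEK and ERK then phosphorylate one another in turn. Active ERK induces genes that shut the pathway down again, and their transcripts are widely read as a sign of ERK output, which is usually strong in pancreatic cancer. DUSP4, DUSP5 and DUSP6 are phosphatases that remove the activating phosphates from ERK, DUSP6 in the cytoplasm and DUSP4 and DUSP5 in the nucleus. SPRY2 and SPRY4 (Sprouty) restrain signalling between the receptor and RAF, and SPRED1 and SPRED2 (Sprouty-related) bring neurofibromin to RAS. ETV4 and ETV5 are ETS-family transcription factors induced downstream of ERK, and PHLDA1 is a pleckstrin-homology-domain protein whose transcript follows receptor and ERK activity.

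Promoter sequences show which elements lie in front of these genes, and they are given for the member with the lowest p under both treatments (PHLDA1), for a member called between the control groups (DUSP6) and for SPRY2, which holds matches to the same motifs as PHLDA1. RefSeq's promoter table (GRCh38.p14) had entries for 6 of the 10 members, namely DUSP6, SPRY2, SPRY4, SPRED1, SPRED2 and PHLDA1. No entry was at hand for DUSP4, DUSP5, ETV4 and ETV5. Each line holds the 250 bases before the start of transcription, 5′ to 3′ on the gene's strand, in lower case, with matches to 2 motifs in capitals: the ETS core CCGGAA and the EBF motif CCCNNGGG, each searched on both strands.
PHLDA1 (chr12:76031777-76032026, minus strand): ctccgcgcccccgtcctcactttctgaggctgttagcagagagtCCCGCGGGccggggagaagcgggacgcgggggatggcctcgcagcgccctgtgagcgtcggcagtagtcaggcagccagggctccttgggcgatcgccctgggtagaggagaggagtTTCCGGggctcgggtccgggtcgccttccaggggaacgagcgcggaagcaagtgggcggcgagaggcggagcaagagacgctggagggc
SPRY2 (chr13:80341127-80341376, minus strand): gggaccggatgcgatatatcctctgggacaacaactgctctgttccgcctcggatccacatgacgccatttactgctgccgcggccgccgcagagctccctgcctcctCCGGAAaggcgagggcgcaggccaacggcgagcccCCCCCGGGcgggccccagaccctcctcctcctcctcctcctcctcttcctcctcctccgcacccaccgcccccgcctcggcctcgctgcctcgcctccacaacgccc
DUSP6 (chr12:89352502-89352751, minus strand): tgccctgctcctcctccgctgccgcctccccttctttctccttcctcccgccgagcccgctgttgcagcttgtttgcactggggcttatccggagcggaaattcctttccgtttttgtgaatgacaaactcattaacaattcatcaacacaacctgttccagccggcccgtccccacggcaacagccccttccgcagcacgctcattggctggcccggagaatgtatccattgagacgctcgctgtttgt
The ETS core was present in 2 of the 6 promoters, 89 bases before the start in PHLDA1 (on the reverse strand) and 142 bases before it in SPRY2, against 14.8% of the 27305 promoters in the table. The EBF motif was present in 3 of the 6, at 206 bases before the start in PHLDA1, 107 in SPRY2 and 118 in SPRED2, against 16.6% of all promoters. The AP-1 motif TGANTCA (6.60% of all promoters), the cyclic AMP response element TGACGTCA (1.77%) and the CArG box bound by SRF (1.14%) were in 0 of the 6. DUSP6 held no match to any of the 5 motifs in this window. In SPRY4 and SPRED1 the start used lay 774 and 749 bases inside the gene's listed coordinates. Their windows thus lie within the listed gene, not in front of it. A match describes letters only and was not tested for binding.

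The 8 libraries held between 20453362 (EBF2-OE 2) and 27054876 (Vehicle 2) counts on genes. EBF2 had 28 counts in each Vector library, 5818 in EBF2-OE 2 and 90100 in EBF2-OE 3. Both overexpressing libraries thus carried the labelled transcript, at levels 14.1-fold apart relative to library size corrected by edgeR's TMM factors. The epithelial cytokeratins KRT7, KRT8 and KRT18 lay between 459 and 3200 TPM (a transcript's level scaled for gene length and library total), while KRT19, EPCAM, CDH1 and CEACAM6 stayed at or below 1.57 TPM in every library. The acinar gene PRSS1, the endocrine genes INS and GCG and the T-cell gene CD3E had 0 counts in all 8 libraries. Other markers were detected: the fibroblast list summed to 42.2 to 60.8 TPM (COL1A1 alone 30.5 to 45.2), the leukocyte list to at most 30.9 TPM (CD68 alone 10.9 to 30.9, PTPRC at most 0.122) and the endothelial list to 0.503 to 5.02 TPM (CDH5 alone 0.347 to 4.34), and their part in the results was not tested.

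The 10 feedback genes covered a wide range of levels, from SPRY4 at 0.596 to 2.26 TPM to ETV4 at 65.8 to 120.2 TPM. The nuclear phosphatase DUSP5 (chr10:110497907-110511533, plus strand, hg38) was the most variable, with 36.2 and 82.5 TPM in Vector, 28.1 and 65.4 in EBF2-OE, 20.3 and 20.2 in Vehicle and 19.8 and 22.3 in GSK-LSD1. All 4 libraries of the overexpression experiment thus lay above all 4 libraries of the inhibitor experiment, and the highest was 4.16-fold above the lowest. DUSP4 (chr8:29333064-29350684, minus strand) had 7.36 and 5.54 TPM in Vector, 5.54 and 3.90 in EBF2-OE, 2.27 and 2.51 in Vehicle and 2.46 and 3.04 in GSK-LSD1. DUSP6 (chr12:89347235-89352501, minus strand), the cytoplasmic phosphatase, had 3.44 and 3.18 TPM in Vector, 2.72 and 2.83 in EBF2-OE, 1.09 and 1.78 in Vehicle and 1.60 and 1.48 in GSK-LSD1. For DUSP4 and DUSP6 too, the overexpression experiment was above the inhibitor experiment without overlap, with 3.24-fold and 3.16-fold between the extreme libraries. The share of all genes separated in this way was not counted, here or for the members below.

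Among the Sprouty genes, SPRY2 (chr13:80335976-80341126, minus strand) had 5.61 and 8.81 TPM in Vector, 5.14 and 6.91 in EBF2-OE, 4.05 and 4.02 in Vehicle and 4.40 and 5.04 in GSK-LSD1. SPRY4 (chr5:142310430-142325021, minus strand) was the least abundant member, with 2.26 and 1.02 TPM in Vector, 1.81 and 1.34 in EBF2-OE, 0.596 and 0.752 in Vehicle and 0.811 and 0.732 in GSK-LSD1. Its 41 to 126 counts per library, like the 38 to 104 of DUSP6, limit the precision of both genes. SPRED1 (chr15:38252087-38357249, plus strand) did not separate the experiments, with 5.70 and 4.22 TPM in Vector, 4.78 and 3.68 in EBF2-OE, 4.96 and 4.45 in Vehicle and 3.64 and 3.72 in GSK-LSD1. SPRED2 (chr2:65307425-65432599, minus strand) varied the least, over a 1.56-fold range. It had 17.0 and 17.4 TPM in Vector, 16.8 and 15.4 in EBF2-OE, 13.5 and 12.9 in Vehicle and 11.1 and 12.9 in GSK-LSD1. All its libraries of the overexpression experiment still lay above all those of the inhibitor experiment.

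The transcription factor ETV4 (chr17:43527843-43546340, minus strand) was the most abundant member, with 91.6 and 82.0 TPM in Vector, 120.2 and 76.3 in EBF2-OE, 78.1 and 79.4 in Vehicle and 65.8 and 74.4 in GSK-LSD1. Its libraries overlapped between Vector and EBF2-OE, because EBF2-OE 2 was the highest of all 8 and EBF2-OE 3 lay below both Vector libraries. ETV5 (chr3:186046314-186109089, minus strand) had the same order of libraries in that experiment, with 26.6 and 22.7 TPM in Vector and 32.8 and 19.3 in EBF2-OE, followed by 16.5 and 17.9 in Vehicle and 15.4 and 19.3 in GSK-LSD1. PHLDA1 (chr12:76025447-76031776, minus strand) had 29.1 and 23.0 TPM in Vector, 20.1 and 15.6 in EBF2-OE, 18.1 and 16.7 in Vehicle and 12.6 and 13.7 in GSK-LSD1, so that both treated groups lay below their own controls. The counting strand is not given in the sources used here, and ETV4 overlaps DHX8 (2316 to 3400 counts per library) on the opposite strand. The shared exonic stretch is 54 nt, or 1.78% of ETV4's exonic length in GENCODE v44, and reads in it cannot be assigned.

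**Figure D1:**
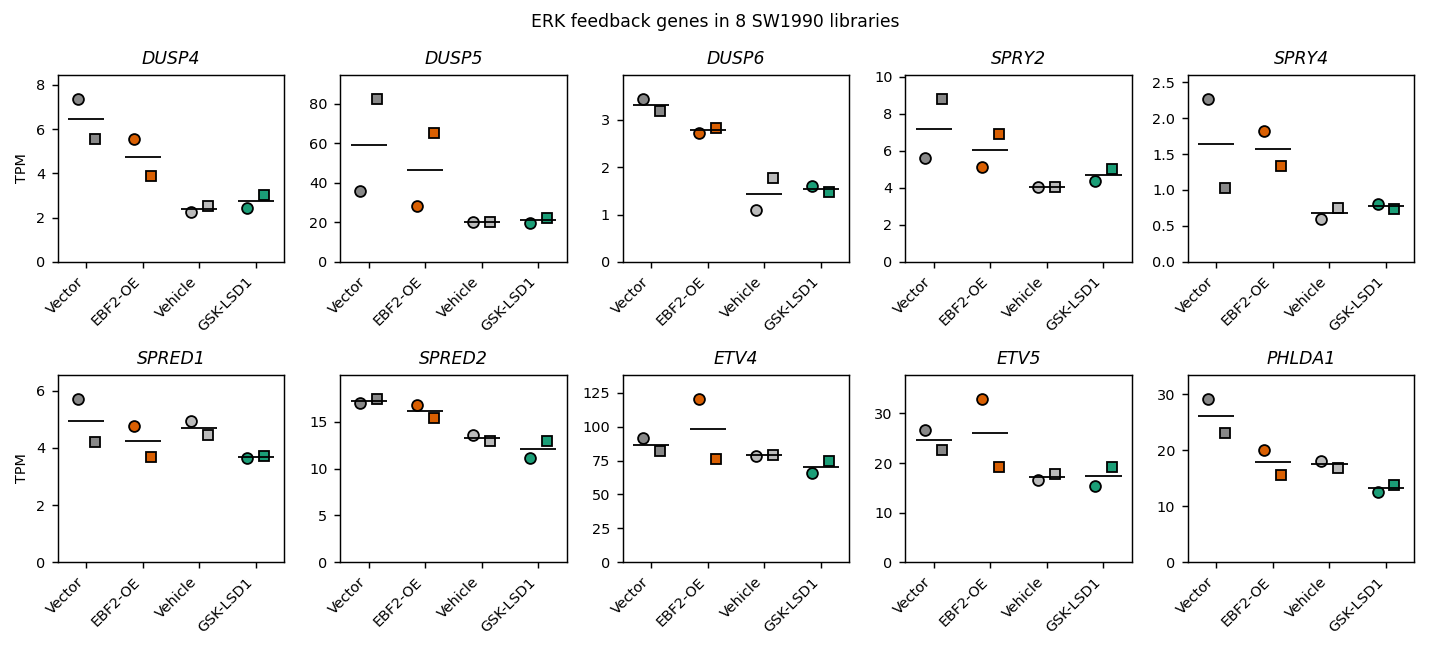
Level in TPM (vertical axis, from 0, its own scale for each gene) of the 10 feedback genes in the 4 groups. Circles are the lower-numbered and squares the higher-numbered library of a group, and the bar is their mean. DUSP4, DUSP5, DUSP6, SPRY2, SPRY4 and SPRED2 lie higher in the Vector and EBF2-OE libraries than in the Vehicle and GSK-LSD1 libraries. PHLDA1 is lower in each treated group than in its control.

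For 5 members (DUSP4, DUSP5, DUSP6, SPRY2 and SPRY4) the order of the group means was Vector, EBF2-OE, GSK-LSD1, Vehicle. In 4 of these 5, the neighbouring Vector and EBF2-OE groups overlapped in TPM (DUSP4, DUSP5, SPRY2 and SPRY4), and in DUSP6 they did not. GSK-LSD1 and Vehicle overlapped in DUSP4, DUSP5, DUSP6 and SPRY4, and EBF2-OE and GSK-LSD1 stood apart in all 5. Some overlaps depend on the unit. In counts scaled to TMM-corrected library size, used below, DUSP4 did not overlap between Vector and EBF2-OE. Nor did DUSP4 or DUSP5 overlap between GSK-LSD1 and Vehicle in that unit. These orders describe 2 libraries per group and carry no test of their own. Gaps between groups of the 2 experiments were common. In CPM, Vector stood apart above Vehicle in 35.5% of all genes tested and below it in 35.2%. The share for EBF2-OE against GSK-LSD1 was not counted.

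The libraries of one group differed most in the overexpression experiment, and DUSP5 was the member that differed most. CPM here means counts scaled to library size after correction by TMM factors. In CPM, library 3 had 2.36-fold as much DUSP5 as library 2 in Vector and 2.35-fold as much in EBF2-OE. DUSP5 was the only member above 1.5-fold in both groups, as were 581 of 15560 genes tested (3.73%), and 0 members lay below 1/1.5 in both (2.84% of genes). SPRY2 was 1.63-fold higher in library 3 of Vector and 1.36-fold higher in library 3 of EBF2-OE. SPRY4 ran the other way, with 2.14-fold less in library 3 of Vector and 1.34-fold less in library 3 of EBF2-OE, and ETV4 and ETV5 were 1.56-fold and 1.69-fold lower in library 3 of EBF2-OE.

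EGR1 and FOS, immediate early genes induced within minutes of ERK activation, split the same libraries. EGR1 had 169 and 6348 counts in Vector and 74 and 4038 in EBF2-OE, a 33.5-fold and a 49.5-fold difference in CPM, against 61 to 97 counts in the other 4 libraries. FOS had 986 and 4655 counts in Vector and 793 and 7463 in EBF2-OE, or 4.21-fold and 8.54-fold in CPM. DUSP5 and SPRY2 were thus higher, and DUSP4, SPRY4, SPRED1, ETV4, ETV5 and PHLDA1 lower, in the libraries with the high EGR1 and FOS counts. The part of these libraries' state in the members' values was not tested. In the inhibitor experiment the largest difference between the 2 libraries of a group was 0.68 on the log2 scale, for DUSP6 in Vehicle.

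**Figure D2:**
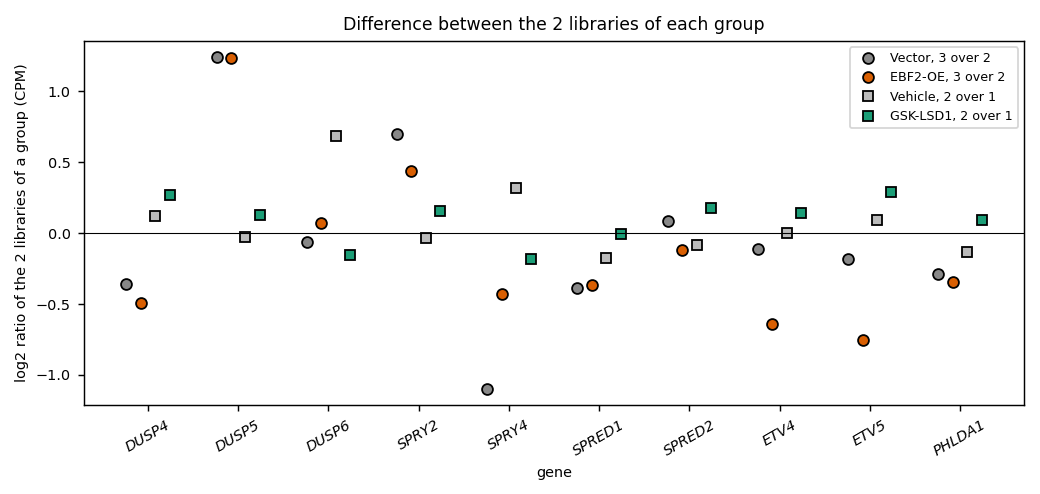
Log2 ratio in CPM (vertical axis) of the higher-numbered over the lower-numbered library of each group for the 10 genes (horizontal axis). Circles are Vector and EBF2-OE (3 over 2) and squares are Vehicle and GSK-LSD1 (2 over 1). DUSP5 stands at 1.24 in Vector and 1.23 in EBF2-OE, while no ratio in the inhibitor experiment exceeds 0.68 in size.

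EBF2-OE was compared with Vector to see whether overexpressed EBF2 moved the ERK feedback genes. A gene was called when its edgeR adjusted p (Benjamini-Hochberg, over all genes tested) was under 0.05 and its fold change above 1.5. None of the 10 members was called, and neither was any of the 15560 genes tested (0% higher, 0% lower), EBF2 itself included. DESeq2 called 6 genes higher and 1 lower, 0 of them members. With the libraries treated as unpaired, edgeR passed 208 genes (1.34%) at an unadjusted p under 0.05, and 1 member was among them. That member was PHLDA1, with a log2 fold change of -0.51 (SE 0.174, 95% interval -0.94 to -0.09, edgeR Benjamini-Hochberg adjusted p = 1.00). Both EBF2-OE libraries of PHLDA1 lay below both Vector libraries, and the difference was -0.50 between the libraries numbered 2 and -0.56 between those numbered 3.

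Of the 10 members, 8 had a negative and 2 a positive log2 fold change in EBF2-OE, with a median of -0.21 against 0.00 over all genes tested. The value was positive for 50.9% of all genes tested. The phosphatases stood at -0.42 (SE 0.236) for DUSP4, -0.32 (SE 0.507) for DUSP5 and -0.22 (SE 0.259) for DUSP6. The Sprouty and SPRED genes stood at -0.23 (SE 0.305) for SPRY2, -0.02 (SE 0.419) for SPRY4, -0.20 (SE 0.220) for SPRED1 and -0.07 (SE 0.130) for SPRED2. The ETS factors had the 2 positive values, 0.21 (SE 0.218) for ETV4 and 0.11 (SE 0.253) for ETV5. In CPM, both EBF2-OE libraries were below both Vector libraries in 3 members (DUSP4, DUSP6 and PHLDA1), which 12.2% of all genes also showed, and above them in 0 members, against 10.8% of all genes. For DUSP4 the gap was narrow, with 15.3 CPM in Vector 3 and 15.1 in EBF2-OE 2, and its groups overlapped in TPM. Within the libraries of one number, EBF2-OE was below Vector in 7 members for number 2, in 9 for number 3, and in 6 for both. The shares of all genes below Vector by number were not counted, so these counts are a description only. For DUSP5 these differences were -0.33 and -0.34, although its SE across the unpaired libraries was the widest of the members.

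The precision of this comparison was low. The biological coefficient of variation was 19.0%, and the 95% interval of the fold change lay wholly within 1.5-fold in either direction for 1 member, SPRED2 (-0.38 to 0.25). For DUSP5 the interval ran from -1.56 to 0.91 on the log2 scale and for SPRY4 from -1.04 to 1.00. These intervals treat the libraries as unpaired, and changes of 1.5-fold in either direction lay inside them. When libraries of equal number were blocked together (replicate block), the unadjusted edgeR p of DUSP5 went from 0.550 to 0.0438. That of DUSP4 went from 0.125 to 0.0257 and that of PHLDA1 from 0.0250 to 0.00409. The p stayed high for SPRY4 (0.865) and rose for SPRED2 (0.624 to 0.646) and ETV5 (0.684 to 0.708). The adjusted p of all these was at least 0.773, and the labels do not say that equal numbers pair libraries.

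**Figure D3:**
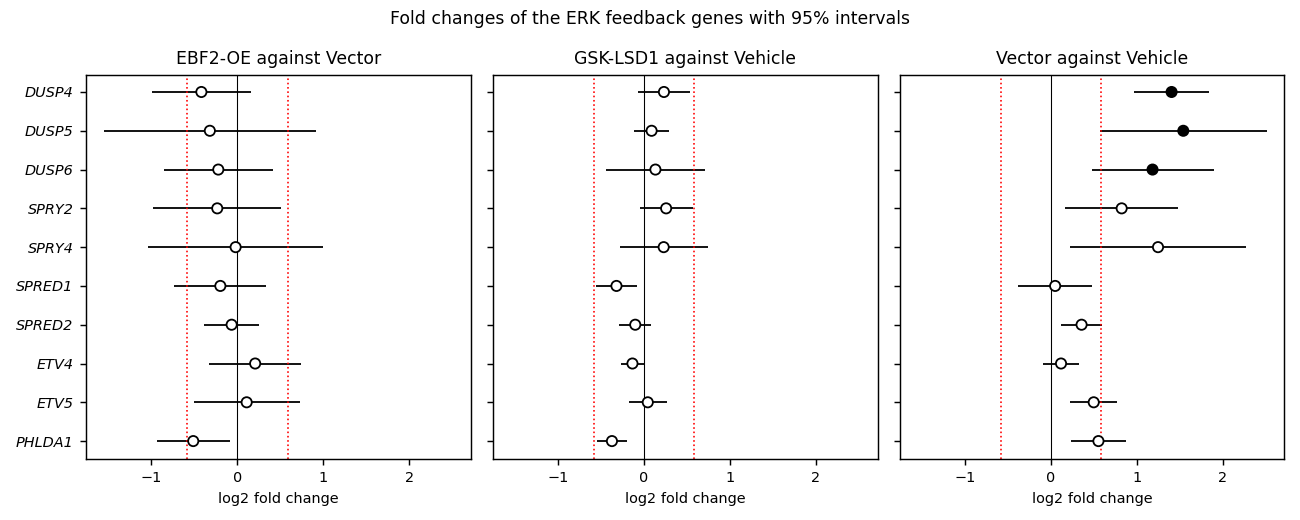
Log2 fold change (horizontal axis, the same in all panels) with its 95% interval for the 10 feedback genes in 3 comparisons, from edgeR's quasi-likelihood fit. Filled points are called (adjusted p under 0.05 and fold above 1.5), and dotted red lines mark 1.5-fold. Called genes appear only between the control groups, for DUSP4, DUSP5 and DUSP6, and the intervals are shortest under GSK-LSD1.

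GSK-LSD1 was compared with Vehicle to see how the same genes stood in cells given the inhibitor. Whether any change came through KDM1A was not tested. None of the 10 members was called, while 2.53% of the 16059 genes tested were called higher and 2.04% lower. PHLDA1 passed the adjusted p without reaching the fold limit, as the only one of the 10 members, against 18.7% of all genes that passed at any fold. Its counts went from 1031 and 1030 to 677 and 713 under GSK-LSD1, and it fell by 0.37 on the log2 scale (SE 0.0779, 95% interval -0.55 to -0.20, edgeR Benjamini-Hochberg adjusted p = 0.00796), or 1.30-fold lower. In a single fit over all 8 libraries, which shares one spread between both experiments, its edgeR adjusted p was 0.330, the highest of a range from 0.00264 over the alternatives that kept every library, and without GSK-LSD1 1 it was 0.0928.

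SPRED1 had the next lowest p, with 424 and 412 counts under vehicle against 295 and 290 under the inhibitor, a log2 fold change of -0.32 (SE 0.106) and an edgeR Benjamini-Hochberg adjusted p of 0.0591. ETV4 stood at -0.14 (SE 0.0627) and SPRED2 at -0.10 (SE 0.0842). The other 6 members had positive values: 0.26 (SE 0.139) for SPRY2, 0.23 (SE 0.139) for DUSP4, 0.23 (SE 0.232) for SPRY4, 0.13 (SE 0.260) for DUSP6, 0.09 (SE 0.0924) for DUSP5 and 0.04 (95% interval -0.18 to 0.26) for ETV5. The median over the members was 0.07 and that over all genes tested -0.01. In CPM, the groups stood apart in 3 members with GSK-LSD1 higher (DUSP4, DUSP5 and SPRY2) and in 3 with GSK-LSD1 lower (SPRED1, ETV4 and PHLDA1), which were near the shares over all genes of 29.9% and 30.3%.

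The libraries of this experiment were closer to each other, with a biological coefficient of variation of 5.87%. The 95% interval lay within 1.5-fold in either direction for 8 of the 10 members, including DUSP4 (-0.08 to 0.54), DUSP5 (-0.12 to 0.29) and SPRED2 (-0.29 to 0.08). For DUSP6 (-0.44 to 0.71) and SPRY4 (-0.28 to 0.74), a change of 1.5-fold upwards lay inside the interval.

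Whether the effects of EBF2 overexpression and of GSK-LSD1 differed was tested as an interaction over all 8 libraries. None of the members passed, and neither did any of the 16558 genes tested (0%) by edgeR, with 1268 genes at an unadjusted p under 0.05 and 0 members among them. DESeq2 called 38 genes higher and 56 lower, 0 of them members. The members' lowest unadjusted p was that of DUSP4 (0.0534), where the log2 effect of EBF2-OE minus that of GSK-LSD1 was -0.66 (SE 0.294). For PHLDA1, negative under both treatments, the difference between the effects was -0.15 (SE 0.205).

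The controls of the experiments were compared as a measure of how far the members differ between cells that received neither treatment. The log2 fold change of Vector over Vehicle was positive for all 10 members, as for 50.2% of the 16019 genes tested, with a median of 0.69 against 0.00 over all of them, and 4 of the 10 (SPRY2, SPRY4, SPRED1 and ETV4) did not pass the adjusted p. The 3 phosphatases were called: DUSP5 at 1.54 (SE 0.390, 2.91-fold, edgeR Benjamini-Hochberg adjusted p = 0.0390), DUSP4 at 1.41 (SE 0.176, 2.65-fold, adjusted p = 0.00969) and DUSP6 at 1.18 (SE 0.285, 2.27-fold, adjusted p = 0.0342). This was 3 of 10 members, against 5.79% of all genes called higher, and 0 members were called lower, against 10.2% of all genes. PHLDA1 (0.55), ETV5 (0.50) and SPRED2 (0.36) also passed the adjusted p below the fold limit, which made 6 of 10 higher at any fold, against 13.6% of all genes. SPRED2 missed the edgeR adjusted p with at least 10 counts in every library (0.0512) and missed it under DESeq2 (0.0709), and ETV5 missed it in 1 fit over all 8 libraries (edgeR, 0.121).

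The Sprouty genes had large values and a wide spread: SPRY4 stood at 1.25 (SE 0.410, edgeR Benjamini-Hochberg adjusted p = 0.0734) and SPRY2 at 0.83 (SE 0.265, adjusted p = 0.0692). ETV4 (0.12) and SPRED1 (0.05) lay closest to 0, with intervals within 1.5-fold, and SPRED1 turned to -0.15 without Vector 2 and to -0.042 without Vehicle 2. Both Vector libraries were above both Vehicle libraries in CPM in 9 members, all but SPRED1, against 35.5% of all genes, and below them in 0 members, against 35.2%. Vector and Vehicle cells differ in the vector, the vehicle and the experiment at once, and these cannot be told apart. DUSP5 stood at 0.79 without Vector 3, the library with the high EGR1 and FOS counts, and at 2.04 without Vector 2, and was called in both cases. Leaving out Vector 3 gave 6 called members (DUSP4, DUSP5, DUSP6, SPRY4, ETV5 and PHLDA1), and leaving out Vector 2 gave 4 (the phosphatases and SPRY2). Without Vehicle 1 or without Vehicle 2, 0 members were called, and the genes called in all fell from 927 higher and 1631 lower to 2 and 10, or to 34 and 201.

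The same Vector libraries enter the comparison with EBF2-OE, and the same Vehicle libraries that with GSK-LSD1, so the members' values are only set side by side. DUSP4 had 1.41 between the controls, -0.42 in EBF2-OE and 0.23 in GSK-LSD1. For DUSP5 the values were 1.54, -0.32 and 0.09, and for DUSP6 1.18, -0.22 and 0.13. PHLDA1 had 0.55, -0.51 and -0.37. SPRED1 had 0.05, -0.20 and -0.32, and ETV4 0.12, 0.21 and -0.14.

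The rest of the pathway was read from 6 lists with 95 other genes, from receptors to ERK targets. In EBF2-OE, 90 were tested and 0 were called. With GSK-LSD1, 89 were tested, of which 2 were called higher and 3 lower, near the shares over all genes (2.53% and 2.04%). The receptor FGFR4, which signals through RAS, rose by 0.73 on the log2 scale (SE 0.0733), from 879 and 919 to 1240 and 1356 counts. The EGFR ligand amphiregulin (AREG) rose by 0.94 (SE 0.203) from 51 and 46 to 84 and 79 counts. The fallers were the AP-1 subunits JUNB (-0.84, SE 0.104) and FOSB (-0.66, SE 0.152) and the ERK phosphatase DUSP9 (-0.64, SE 0.0672), whose counts went from 3016 and 2926 to 1688 and 1651. DUSP9 belongs to the same cytoplasmic phosphatase subfamily as DUSP6, whose value of 0.13 did not pass the test.

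By list, set against the same shares of 2.53% higher and 2.04% lower over all genes, GSK-LSD1 called 1 of 18 receptors and adaptors (FGFR4), 0 of 12 genes of RAS and its regulators, 0 of 12 of the kinase cascade and scaffolds, 0 of 14 effector kinases and transcription factors, 1 of 15 other feedback regulators (DUSP9) and 3 of 18 immediate early and delayed ERK targets (AREG higher, JUNB and FOSB lower). Median log2 fold changes of the lists lay between -0.06 for the ERK targets and 0.04 for the kinase cascade. In EBF2-OE the ERK targets had a median of -0.23, with 14 of 19 negative and 0 called, where 50.9% of all genes tested were positive. Their values ran from -0.80 (VGF) to 0.62 (FOS). The 10 feedback genes had a median of -0.21, and the other lists lay between -0.05 and 0.05.

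The closest relatives of the members were read beside them. SPRY1, another Sprouty gene, stood at -0.06 in EBF2-OE and 0.23 in GSK-LSD1, SPRED3 at -0.56 and -0.47 (12 to 67 counts per library), the phosphatase DUSP7 at 0.17 and 0.12 and the ETS factor ETV1 at 0.14 and 0.19, and none of these passed the test. Between the controls, SPRY1 (0.17), SPRED3 (-0.19), DUSP7 (0.10) and ETV1 (0.22) did not pass either, unlike DUSP4, DUSP5 and DUSP6, although the difference between relatives and members was not tested. DUSP1, a nuclear phosphatase that also acts on p38 and JNK, passed the adjusted p under GSK-LSD1 below the fold limit (log2 fold change -0.26, SE 0.0562, edgeR Benjamini-Hochberg adjusted p = 0.0105). ERRFI1 (0.08) and the early response gene IER3 (-0.13) did not pass there.

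Of the named ERK targets, FOSL1 (-0.46, SE 0.0989) and the receptor EPHA2 (-0.36, SE 0.0564) passed the adjusted p under GSK-LSD1 below the fold limit, in the same direction as PHLDA1. Targets went both ways: of 18 tested, 3 passed at any fold higher and 5 lower, against 9.86% and 8.87% of all genes. MYC (-0.16), CCND1 (0.05), EGR1 (-0.19) and FOS (-0.10) did not pass. In the cascade itself, MAPK3 (0.01) and BRAF (-0.15) did not pass. KDM1A, the target of the inhibitor, stood at -0.22 (SE 0.0644, edgeR Benjamini-Hochberg adjusted p = 0.0403), which is no check of an inhibitor that acts on the protein, and EBF2 at 0.44. In EBF2-OE, FOSL1 stood at -0.44 (SE 0.219), IER3 at -0.26, BRAF at -0.23 and EPHA2 at 0.16, none of which passed.

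Between Vector and Vehicle, 11 of 89 tested genes of the lists were called higher and 5 lower, against 5.79% and 10.2% of all genes. The ERK targets had 5 of 18 called higher and 0 lower, against the same 5.79% and 10.2%, with a list median of 0.74. AREG was higher in Vector by 2.32 (SE 0.502), the AP-1 subunit FOSL1 by 1.70 (SE 0.195, 3.24-fold) and the zinc-finger factor KLF6 by 1.32 (SE 0.284, 2.50-fold). FOSL1 had 1020 and 1660 counts in Vector and 477 and 486 in Vehicle. Among the other feedback regulators, ERRFI1, an inhibitor of EGFR, was higher by 1.51 (SE 0.0925) and DUSP9 lower (log2 fold change -1.02, SE 0.181). Upstream, the receptor MET (0.82), the adaptor FRS2 (0.85) and NRAS (0.75) were called higher, and the receptor ERBB3 (-2.13), RRAS (-0.79) and the ERK gene MAPK3 (-0.69) lower. PEA15, which holds ERK in the cytoplasm, was called higher (0.72). EGR1 stood at 5.35 (SE 1.59, edgeR Benjamini-Hochberg adjusted p = 0.0577) and FOS at 2.14 (SE 0.635, adjusted p = 0.0573), with the spread between the Vector libraries given above. IER3 (0.57), MYC (-0.56), BRAF (0.28), DUSP1 (0.06), EPHA2 (0.04) and CCND1 (-0.03) did not pass.

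**Figure D4:**
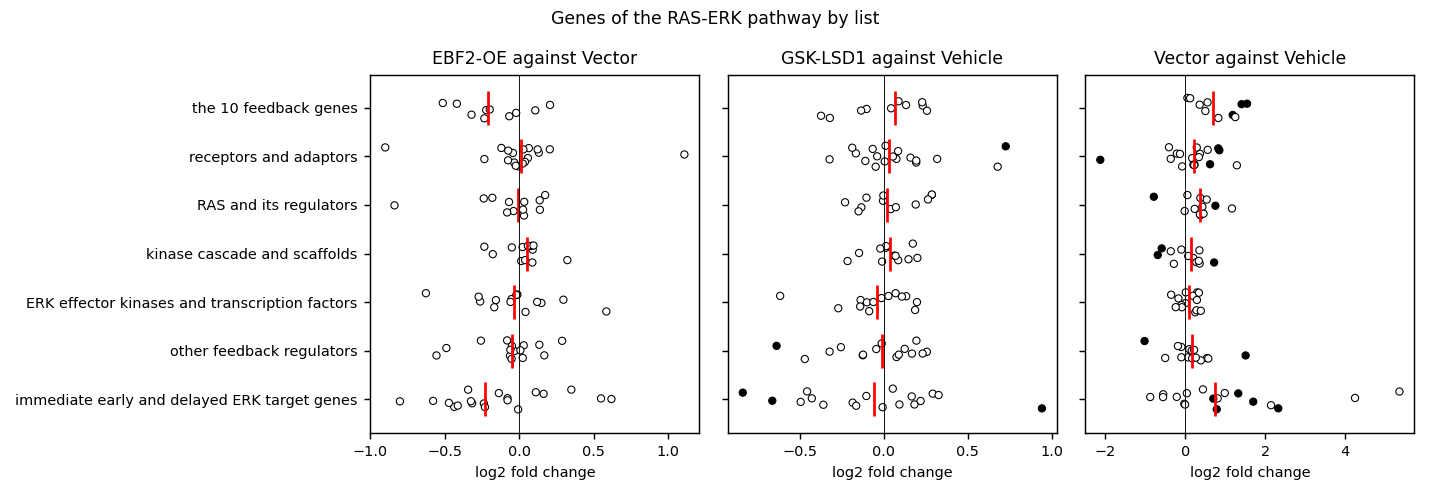
Log2 fold change (horizontal axis, with its own range in each panel) of every tested gene in the 6 pathway lists and of the 10 feedback genes, in 3 comparisons. Filled points are called by edgeR, open points are not, red bars mark each list's median, and the vertical scatter within a list has no meaning. No gene of these lists is called in EBF2-OE against Vector, 5 are called under GSK-LSD1, and between Vector and Vehicle the 10 feedback genes (median 0.69) and the ERK targets (median 0.74) have the highest medians.

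The members did not share 1 pattern across libraries. Each gene's log2(CPM + 1) was centred within its experiment and compared with the mean of the 10 members over the 8 libraries. Pearson's r with that mean was 0.87 for DUSP4, 0.79 for PHLDA1, 0.65 for SPRED2, 0.57 for SPRED1 and 0.55 for ETV5, but 0.38 for DUSP6, 0.32 for ETV4, 0.17 for SPRY4, 0.03 for SPRY2 and -0.16 for DUSP5. Each member is part of the mean it was compared with. Among 11472 genes with a mean of at least 5 CPM, those most like the mean were GRK6 (r = 0.98), RBAK (0.97), PHLDB2 (0.97), CEP350 (0.97) and CNNM4 (0.97). The 8 points share 2 experiments and their libraries' depth, and the ranking is a description.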

How the data were processed

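RNA-seq of 8 SW1990 libraries (4 groups of 2) was used. According to the paper and the labels, the authors selected poly(A) RNA, sequenced paired ends, aligned to hg38 with HISAT2, counted with HTSeq and tested with DESeq2. The authors deposited raw counts per gene and TPM. Each TPM equalled the count divided by the listed length, rescaled to 1000000 per library.

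All tests used the raw counts in edgeR 4.0.16 (R 4.3.3): TMM normalization, filterByExpr with a minimum count of 10, quasi-likelihood test, two-sided p adjusted by Benjamini-Hochberg over all genes tested. Fits of 2 groups used their own 4 libraries, and the interaction used 8. TPM served to compare levels. Low counts limit SPRY4 and DUSP6. The members, lists and tests were chosen with earlier results of these data known. The text names the 10 members, further pathway genes (EGR1, FOS, FOSL1, DUSP1, CCND1, MYC, SPRY1, SPRED3, DUSP7, ETV1, ERRFI1, IER3, EPHA2, BRAF, MAPK3), EBF2 and KDM1A, up to 3 called genes per list and comparison with the largest change, and the 5 genes most like the members' mean. DHX8 and cell type markers are named as checks. Some further genes of this rule are not reported here. Alternatives used DESeq2 1.42.0 and limma 3.58.1 (log2 of CPM plus 1 or 0.1). The fits were tested on simulated data. Figures used matplotlib 3.10.9.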

Additional observations from a re-analysis of the deposited data

How the results depend on the processing

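The number of members called stayed at 0 for EBF2-OE against Vector and for the difference of both effects under every alternative, and at 0 for GSK-LSD1 against Vehicle except without a fold limit, which gave 1 (PHLDA1). For Vector against Vehicle the 3 called members became 5 under DESeq2, with no low-count filter, in 1 fit over all 8 libraries and with unadjusted p, each adding SPRY2 and SPRY4, and 6 without a fold limit, by construction. Leaving out 1 library gave 0 to 6, with the lone library assumed to vary like the other group. Over single members, 499 of the values under alternatives kept their direction and side of the threshold, 16 gained and 6 lost the call, and 29 changed sign, for which the cause was not tested. SPRY4 in EBF2-OE turned to 0.0367 and 0.0595 under limma with a pseudocount of 1 and 0.1, and to 0.0478 with the replicate block. With 1 library left out, the log2 values that changed sign ranged from -1.07 to 0.43 for DUSP5, -0.54 to 0.16 for SPRY2, -0.47 to 0.63 for SPRY4, -0.40 to 0.0133 for SPRED1, -0.15 to 0.49 for ETV4 and -0.32 to 0.44 for ETV5 in EBF2-OE against Vector. They ranged from -0.15 to 0.51 for DUSP6 and -0.11 to 0.18 for ETV5 in GSK-LSD1 against Vehicle. They ranged from -0.15 to 0.23 for SPRED1 in Vector against Vehicle. They ranged from -1.16 to 0.34 for DUSP5, -0.70 to 0.41 for SPRY4, -0.0844 to 0.34 for SPRED1, -0.0609 to 0.12 for SPRED2, -0.031 to 0.63 for ETV4, -0.38 to 0.40 for ETV5 and -0.34 to 0.0269 for PHLDA1 for the difference of both effects.

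Over all genes, the calls in EBF2-OE against Vector (0 and 0) became 6 higher and 1 lower under DESeq2 and 64 and 10 with no filter. With GSK-LSD1, 406 and 328 became 282 and 185 under DESeq2 and 85 and 15 in 1 fit over all 8 libraries. The difference of both effects went from 0 to 38 and 56 under DESeq2 and to 198 and 171 with no filter. The labels do not say that equal numbers pair libraries. Same-numbered libraries' deviations correlated at 0.339 in the overexpression experiment and -0.00208 in the inhibitor experiment. With the replicate block, 0 members were called in each of these 3 comparisons, and the calls over all genes were 4 and 1, 420 and 343, and 14 and 20. No paired analysis was possible for Vector against Vehicle because those groups share only the number 2. Low counts limit SPRY4 and DUSP6, and 2 libraries per group limit every value.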
